A study of Mus musculus with 24 samples.

Results

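The transcriptome of CD11b+ myeloid cells from unirradiated MC38 tumours was compared between Ythdf2 cKO and WT mice. The comparison used every gene with at least 10 counts in at least 3 of the 6 unirradiated (Ctrl) Input libraries, 3 labelled WT and 3 labelled cKO, and 15224 of the 54446 counted gene identifiers met this rule. In the whole series there were 24 libraries, divided evenly between Input RNA and m6A immunoprecipitates (IP) and between unirradiated and irradiated (IR) tumours. WT mice carried floxed alleles of Ythdf2 without Cre (Ythdf2 fl/fl), and cKO mice were Lyz Cre+; Ythdf2 fl/fl, so both groups carried the floxed alleles. All mice had the C57BL/6J background, were male or female and were adult. Cre is expressed from the Lyz2 locus, which is active in monocytes, macrophages and granulocytes, and deletion is therefore limited to cells that have used that locus. MC38 is a mouse colon carcinoma line grown under the skin, and the cells were selected by CD11b, an integrin of myeloid cells, so that each library is a mixture of monocytes, macrophages, granulocytes and some dendritic cells. MC38 tumours are the labelled source, although the protocol text also names blood. Input libraries were made from polyadenylated RNA that had not been through the antibody step. The methods speak of technical replicates from pooled mice for irradiated floxed animals, and elsewhere of biological replicates, and do not describe the unirradiated groups in the same detail, so errors and p-values below are the spread between libraries, which may be technical.

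YTHDF2 is a cytoplasmic reader of N6-methyladenosine (m6A), the commonest internal modification of mRNA. It recruits the CCR4-NOT deadenylase and other decay enzymes, so that bound transcripts are shortened and degraded. Tumour myeloid cells range from inflammatory monocytes and neutrophils to macrophages that present antigen or suppress T cells. Type I interferon acts on these cells through a transcription factor complex that holds STAT2 and IRF9 and switches on the interferon-stimulated genes.

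In libraries labelled cKO the interferon-stimulated genes were higher and the granule genes of neutrophils and other granulocytes were lower. Of 53 tested interferon-stimulated genes, 51 rose and 0 fell, with a median log2 fold change of 0.85. Of 20 tested neutrophil genes, 18 fell and 1 rose, with a median of −1.36. Over all genes the median was 0.00, and 3870 of 15224 genes (25.4%) were called with the quasi-likelihood test of edgeR at a Benjamini-Hochberg adjusted p under 0.05. The called genes split into 1977 higher (13% of those tested) and 1893 lower (12.4%) in the libraries labelled cKO. Most of these differences were small, with a median absolute log2 fold change of 0.22 and 67.7% of called genes under 1.25-fold. At least 2-fold differences were found for 78 higher and 319 lower genes. The plot of fold change against level shows both gene groups against all others. With upper-quartile scaling, which moved the median of all genes to −0.02, 1590 genes were higher and 2326 lower, so that 40.6% of called genes were higher against 51.1% with the main scaling.

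**Figure D1:**
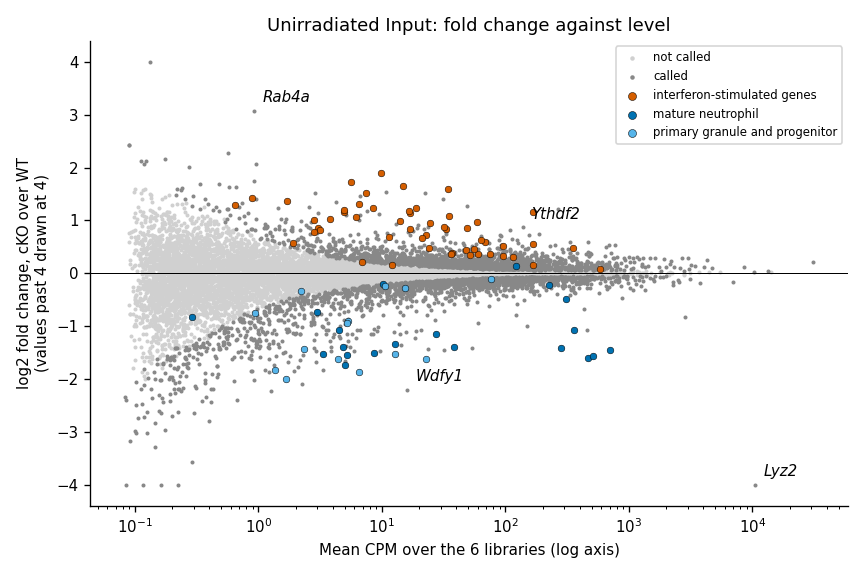
Log2 fold change (libraries labelled cKO over WT) of each tested gene against its mean level in CPM over the 6 unirradiated Input libraries, on a log axis. Interferon-stimulated genes (orange) lie above 0 and most neutrophil (dark blue) and primary granule (light blue) genes below it, among called (dark grey) and other (light grey) genes. Values past 4 in size, such as that of Lyz2, are drawn at 4.

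The 6 libraries held 71303126 to 83661576 gene counts, and the shallowest and the deepest were both labelled cKO. Values are given in CPM, counts scaled by the library's total after TMM normalisation. Mitochondrial genes took 4.61 to 4.84% of the counts in WT and 5.34 to 5.51% in the libraries labelled cKO. Reads outside annotated genes made up 5.21 to 5.30% and 4.40 to 4.46%. The groups did not overlap in either measure, and the part of these differences in the results below was not tested. The common biological coefficient of variation was 3.76%, so that differences well under 1.25-fold passed the test for genes of moderate level. No 2 libraries of a group agreed within sampling noise, with a chi-square per gene of 3.52 to 7.19 between them.

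The targeted gene was examined first, and its counts over the whole gene were higher, not lower, in the libraries labelled cKO. Ythdf2 (ENSMUSG00000040025.17; GRCm38, chr4:132184912-132212303, minus strand) was measured at 95.9, 97.1 and 98.5 CPM in the WT libraries and at 175, 185 and 175 CPM in those labelled cKO. All 3 libraries labelled cKO were above all 3 WT libraries, and the log2 fold change was 0.88 (SE 0.028, adjusted p = 5.3e-20, edgeR). These counts cover the whole gene and do not show whether the floxed part was present. The groups are therefore named by their labels, and each direction below rests on those labels.

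Lyz2, the lysozyme gene of macrophages and granulocytes that carries Cre in the cKO line (ENSMUSG00000069516.8; chr10:117277331-117282321, minus strand), was counted at 20301, 20863 and 20793 CPM in WT. It was counted at 305, 297 and 299.9 CPM in the libraries labelled cKO, 68.7-fold lower (log2 −6.10, SE 0.015, adjusted p = 4.8e-49, edgeR). The neighbouring paralog Lyz1, lysozyme of Paneth cells, was at 21.1, 19.7 and 20.3 CPM in WT and at 24.2, 25.2 and 25.8 CPM in the libraries labelled cKO (log2 0.30, SE 0.053, adjusted p = 7e-05, edgeR). Lyz1 and Lyz2 are near-identical, and how reads that fit both were counted limits the value of Lyz1. The plot of single libraries shows these differences beside the spread within each group.

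**Figure D2:**
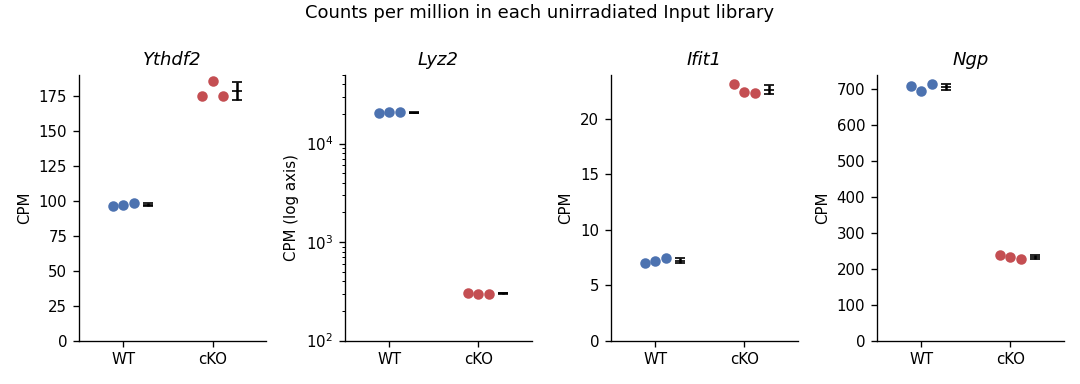
CPM of Ythdf2, Lyz2 (log axis), Ifit1 and Ngp in the 3 WT (blue) and 3 cKO-labelled (red) unirradiated Input libraries. Points are libraries, and the black mark and bar beside them are the mean ± SD (n = 3). In each panel the groups do not overlap, with Ythdf2 and Ifit1 higher and Lyz2 and Ngp lower in the libraries labelled cKO.

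The interferon-stimulated genes gave many of the largest rises. Ifit1, an RNA-binding protein that blocks translation of viral RNA, was at 7.004, 7.13 and 7.47 CPM in WT and at 23.2, 22.4 and 22.4 CPM in the libraries labelled cKO. Its log2 fold change was 1.65 (SE 0.065, adjusted p = 5.5e-18, edgeR). The neighbouring family member Ifit3 was at 3.49, 3.96 and 4.18 CPM in WT and at 11.2, 11.3 and 10.7 CPM in the libraries labelled cKO, a log2 fold change of 1.51. For both genes each library labelled cKO was over 2-fold above each WT library. Ifit3 has a near-identical copy, Ifit3b, which rose by 1.36, and reads that fit both copies make these values uncertain.

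Rtp4, a chaperone of receptors that is induced by interferon, had the largest rise of the list. It was at 4.08, 4.02 and 4.34 CPM in WT and at 16.1, 14.4 and 15.6 CPM in the libraries labelled cKO (log2 1.89, SE 0.081, adjusted p = 4.2e-17, edgeR). The oligoadenylate synthetases sense double-stranded RNA and activate RNase L. Oas2 was at 2.33, 2.69 and 2.90 CPM in WT and at 9.14, 8.72 and 8.28 CPM in the libraries labelled cKO, and Oasl2, a family member, at 17.2, 16.2 and 17.7 and 50.6, 52.5 and 52.05 CPM. Their log2 fold changes were 1.72 and 1.60. No library of either group reached the other group, which the rule for naming the largest rises required.

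Isg15, a ubiquitin-like modifier, was at 3.34, 4.19 and 3.61 CPM in WT and at 9.48, 9.14 and 9.09 CPM in the libraries labelled cKO (log2 1.31, SE 0.10, adjusted p = 8.3e-12, edgeR). Among further members Rsad2, the antiviral enzyme viperin, rose by 1.24, Cmpk2, its neighbour on the chromosome, by 1.23, Zbp1, a sensor of Z-form nucleic acid, by 1.14, and Ifitm3, a membrane protein that blocks viral entry, by 0.97 on the log2 scale. The smallest rises were those of Samhd1, a nucleotide hydrolase, at 0.09 and Trim25, a ubiquitin ligase, at 0.15. Herc6 (0.15) and Slfn1 (0.22) were the members that did not pass the test. The PYHIN genes, which encode sensors of DNA and nuclear regulators in a cluster of similar copies on chromosome 1, also rose, with log2 fold changes of 1.75 for Ifi213, 1.51 for Ifi206, 1.41 for Ifi208, 0.79 for Ifi205 and 0.63 for Ifi204. Summed over the list, the level was 2294 to 2307 CPM in WT and 3223 to 3281 CPM in the libraries labelled cKO. The count of rises was 50 to 51 when all 12 Inputs were fitted together or upper-quartile scaling was used.

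Promoters are shown because interferon-stimulated genes are regulated through a DNA element, the interferon-stimulated response element, which holds a pair of GAAA repeats. The core GAAANNGAAA was searched on both strands, so that a match on the other strand reads TTTCNNTTTC, in RefSeq promoter windows of GRCm38.p6 that run from 250 bases before to 50 bases after each gene start. Of the 32851 windows 3.44% held a match. Among the tested genes with a window the share was 3.998% (417 of 10431), among called higher genes 8.02% (123 of 1533) and among called lower genes 3.03% (41 of 1353). Of the 46 genes with a window that were at least 2-fold higher, 16 (34.8%) held a match, and of the 40 interferon-stimulated genes with a window 22 did. These shares describe the windows, and a window without a match says nothing about elements elsewhere. The stretch from 180 to 21 bases before the start is printed for 6 of the genes that rose and held a match, 5′ to 3′ on the strand of the gene, with every base covered by a match in capitals.
Ifit1 (chr19:34640709-34640868, plus strand): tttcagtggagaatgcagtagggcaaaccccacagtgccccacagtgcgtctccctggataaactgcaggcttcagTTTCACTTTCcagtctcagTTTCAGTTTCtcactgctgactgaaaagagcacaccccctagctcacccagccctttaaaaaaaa
Ifit3 (chr19:34583349-34583508, plus strand): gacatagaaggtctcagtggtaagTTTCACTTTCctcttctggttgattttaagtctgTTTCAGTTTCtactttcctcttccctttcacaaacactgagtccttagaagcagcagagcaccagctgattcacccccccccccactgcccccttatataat
Isg15 (chr4:156200839-156200998, minus strand): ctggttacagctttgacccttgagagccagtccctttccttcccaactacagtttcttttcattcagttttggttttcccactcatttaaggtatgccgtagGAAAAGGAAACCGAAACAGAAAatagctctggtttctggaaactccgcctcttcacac
Rsad2 (chr12:26456473-26456632, minus strand): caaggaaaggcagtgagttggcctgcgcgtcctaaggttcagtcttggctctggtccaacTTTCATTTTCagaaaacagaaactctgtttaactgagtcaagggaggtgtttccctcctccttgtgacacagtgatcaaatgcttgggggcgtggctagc
Ifi206 (chr1:173491339-173491498, minus strand): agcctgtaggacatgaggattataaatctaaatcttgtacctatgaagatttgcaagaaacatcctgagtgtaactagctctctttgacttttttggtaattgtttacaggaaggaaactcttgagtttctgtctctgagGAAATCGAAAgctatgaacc
Ifi213 (chr1:173599293-173599452, minus strand): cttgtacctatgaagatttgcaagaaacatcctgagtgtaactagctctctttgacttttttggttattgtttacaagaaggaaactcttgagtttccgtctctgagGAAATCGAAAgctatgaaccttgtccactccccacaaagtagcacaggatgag
Ifit1 and Ifit3 each held 2 separate matches, both on the opposite strand, and Isg15 held 3 matches that overlap in a run of repeats beginning 78 bases before the start.

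The signalling genes upstream of this response had smaller differences. Of 26 tested genes of interferon signalling, 19 rose and 0 fell, with a median of 0.15. Irf7, the transcription factor that amplifies type I interferon production and is itself induced by interferon, was at 12.2, 11.3 and 11.6 CPM in WT and at 33.6, 32.2 and 34.4 CPM in the libraries labelled cKO. Its log2 fold change of 1.51 (SE 0.055, adjusted p = 1.1e-18, edgeR) was the largest of the list. In the transcription factor complex itself Stat2 rose by 0.58 and Irf9 by 0.56. The receptor subunit Ifnar1 rose by 0.14, while Ifnar2 (0.06), Jak1 (0.00), Irf1 (0.04) and Irf5 (−0.02) did not pass. The endosomal sensors of nucleic acid Tlr3, Tlr7, Tlr8 and Tlr9 rose by 0.59, 0.35, 0.39 and 0.19. The ligand genes Ifnb1, Ifna4 and Ifng had too few counts to be tested.

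Interferon-inducible GTPases attack the vacuoles of intracellular pathogens, and 11 of 14 rose and 0 fell (median 0.70). The immunity-related GTPases Iigp1 (1.22), Ifi47 (1.18), Tgtp2 (1.09), Irgm2 (0.85), Irgm1 (0.84) and Igtp (0.78) rose. Among the guanylate-binding proteins Gbp6 (1.21) and Gbp7 (0.62) rose by most and Gbp2 (0.14), Gbp3 (0.18) and Gbp5 (0.15) by less, while Gbp4 (0.08), Gbp8 (−0.07) and Gbp9 (−0.11) did not pass. The call of Iigp1 was lost without WT replicate 1 or 3 or cKO replicate 1 or 2, and that of Gbp6 without WT replicate 2 or 3 or cKO replicate 2 or 3. Ifi47 was at 4.50, 4.71 and 4.83 CPM in WT and at 10.4, 10.3 and 10.9 CPM in the libraries labelled cKO.

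Some of the largest rises were outside these lists. Rab4a, a small GTPase of early endosome recycling, had the largest rise of all genes that met the naming rule, from 0.265, 0.105 and 0.215 CPM in WT to 1.79, 1.53 and 1.61 CPM in the libraries labelled cKO (log2 3.07, SE 0.31, adjusted p = 5.6e-09, edgeR). These levels rest on 19, 8 and 16 counts in WT against 128, 129 and 122. Serpinb2, the plasminogen activator inhibitor 2 of monocytes, was at 5.28, 5.56 and 5.72 CPM in WT and at 15.7, 17.4 and 14.8 CPM in the libraries labelled cKO, a log2 fold change of 1.53. Serpinb9b, a serpin, rose by 1.41, and Slc13a3, a sodium-coupled transporter of dicarboxylates such as succinate and itaconate, by 1.35. The groups were separate in all 4 genes, which the naming rule required.

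Granulocyte genes fell together. Ngp, a neutrophil granule protein, was at 708, 695 and 713 CPM in WT and at 237, 232 and 228 CPM in the libraries labelled cKO (log2 −1.60, SE 0.021, adjusted p = 8e-30, edgeR). Ltf, the iron-binding lactoferrin of secondary granules, was at 762, 769.7 and 767 CPM in WT and at 253, 260.2 and 259 CPM in the libraries labelled cKO (log2 −1.57, SE 0.02, adjusted p = 6.5e-30, edgeR). Each library labelled cKO was over 2-fold below each WT library in both genes. Camp, the precursor of cathelicidin, fell by 1.74, S100a8 by 1.41 and S100a9, its partner in calprotectin, by 1.45 on the log2 scale. The chemokine receptor Cxcr2 fell by 1.34 and Ly6g, the surface antigen by which mouse neutrophils are sorted, by 1.07. Falls were smaller for the collagenase Mmp8 (−0.48), for Mmp9 (−0.22) and for Trem1 (−0.21). Csf3r, the receptor of granulocyte colony-stimulating factor, was the member that rose (0.14), and Mrgpra2b (−0.83) did not pass. In bulk RNA fewer cells of a type and less RNA per cell cannot be told apart.

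Genes of primary granules and of granulocyte progenitors fell likewise, 13 of 14 with a median of −1.19. Elane, neutrophil elastase, was at 11.3, 10.2 and 9.28 CPM in WT and at 2.49, 2.77 and 3.13 CPM in the libraries labelled cKO, and Mpo, myeloperoxidase, at 35.5, 35.2 and 33.03 and 11.5, 10.7 and 11.4 CPM. Their log2 fold changes were −1.87 and −1.63. The serine proteases Ctsg and Prtn3 fell by 1.99 and 1.62, and Ms4a3, a marker of granulocyte and monocyte progenitors, by 1.83. Gfi1 (−0.34) was the member that did not pass. Kit, Flt3 and Sox4, genes of earlier progenitors, fell by less (−0.28, −0.25 and −0.10). Cd34, on early progenitors, fell by 0.75.

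Other granulocytes showed the same direction. Of 8 tested eosinophil genes, 6 fell, among them Epx, eosinophil peroxidase, from 5.93, 6.24 and 4.78 CPM in WT to 1.86, 2.50 and 1.73 CPM in the libraries labelled cKO (log2 −1.47). Siglecf (−0.20) and Ccr3 (−0.22), the surface markers, did not pass. All 5 tested genes of mast cells and basophils fell, with a median of −1.35. They included Cpa3, carboxypeptidase A3 (−1.41), Ms4a2, a subunit of the high-affinity IgE receptor (−1.35), and the transcription factor Gata2 (−1.16), while 5 listed genes had too few counts to be tested. Summed levels were 4241 to 4372 CPM in WT and 1913 to 1938 CPM in the libraries labelled cKO for the neutrophil list, 40.3 to 42.5 and 23.9 to 27.9 CPM for eosinophils, and 21.9 to 22.7 and 8.13 to 9.80 CPM for mast cells and basophils.

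Markers of other cells that could have entered the sort were rare and in part lower. For T cells Cd3d, Cd3e and Cd3g did not reach the count minimum, for NK cells Ncr1 and Klrb1c, for B cells Cd79a, for epithelial tumour cells the keratins Krt8 and Krt18, and for fibroblasts Col1a2 and Pdgfra. No listed erythroid gene was tested. Among the tested markers Igkc, an immunoglobulin light chain, fell by 2.04, Thy1 by 1.49, Col1a1 by 1.38 (a call lost without WT replicate 3 or cKO replicate 3), Pecam1 by 1.11 and Itga2b by 1.28. Calls were 0 higher and 1 lower of 7 for T cells, 1 of 1 higher for NK cells (Klrk1, 0.33), 2 lower of 4 for B cells, 1 lower of 2 for epithelial cells, 1 higher and 3 lower of 4 for fibroblasts, 2 lower of 4 for endothelium, and 2 lower of 4 for platelets. Over all genes 25.4% were called, and single libraries decided part of these counts. The B cell count fell to 1 without WT replicate 1 or 2 or cKO replicate 1 or 2, and with the replicate block. The epithelial count fell to 0 without WT replicate 1 or 3 or cKO replicate 1 or 3, and with the block. The platelet count fell to 1 without any single library other than WT replicate 1, and with the block. The T cell count was 0 without cKO replicate 3, and without WT replicate 3 there was 1 T cell gene higher. Their summed levels in CPM, WT against labelled cKO, were 11.5 to 12.2 against 10.7 to 11.98 for T cells, 10.3 to 10.5 against 7.70 to 8.72 for B cells, 11.4 to 13.4 against 9.91 to 11.1 for fibroblasts and 180.3 to 182 against 151 to 154 for endothelium. The part of a different mixture of cells in the falls was not tested.

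**Figure D3:**
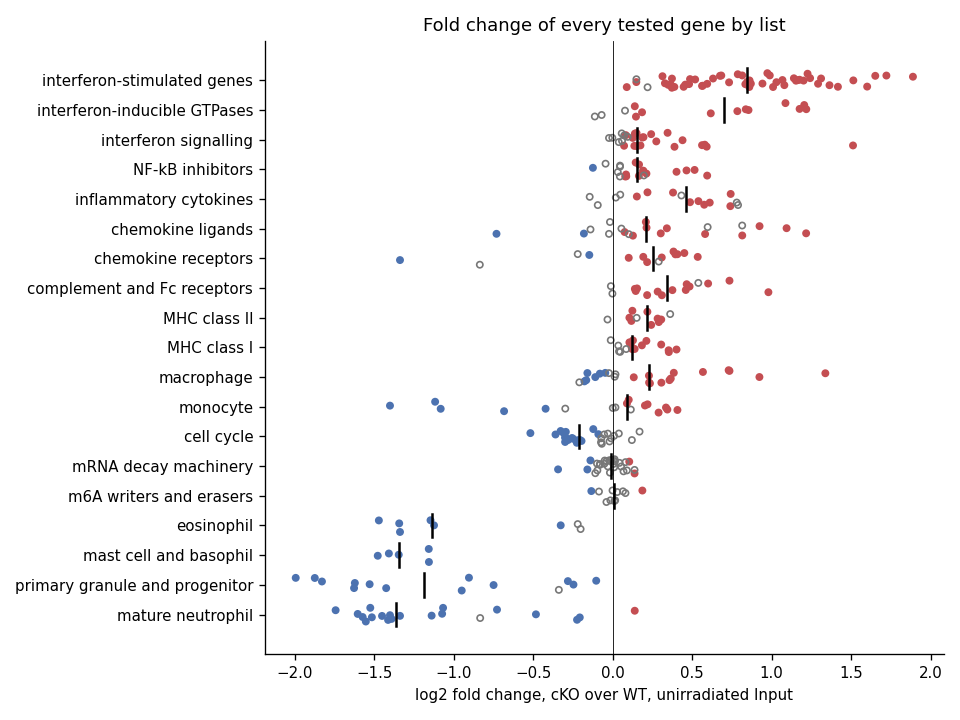
Log2 fold change (libraries labelled cKO over WT, unirradiated Input) of every tested gene of 19 lists. Filled points are called higher (red) or lower (blue), open points are not called, and black bars are list medians. The medians run from −1.36 for neutrophil genes to 0.85 for interferon-stimulated genes.

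Of 10 markers of the sorted myeloid lineage, 7 rose and 1 fell (median 0.12), and the groups did not overlap in any of the 10. Over all genes 25.4% were called and 37.4% did not overlap. These markers are abundant, with a sum of 6993 to 7149 CPM in WT. Calls were more frequent at high levels, with 31.1% higher and 27.9% lower among genes above 300 CPM. Itgam, which encodes CD11b, did not pass (0.03), its partner Itgb2 fell by 0.08, and Ptprc, the leukocyte antigen CD45, rose by 0.11. The largest difference of these genes was that of Cd14, the co-receptor for lipopolysaccharide, at 558, 570.3 and 555 CPM in WT and 813, 797 and 821 CPM in the libraries labelled cKO (log2 0.53).

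Macrophage genes moved in both directions, 13 higher and 6 lower of 23 (median 0.23). Siglec1, the adhesion receptor CD169, was at 17.5, 15.7 and 17.3 CPM in WT and at 29.6, 32.8 and 33.3 CPM in the libraries labelled cKO (log2 0.92). Cd163, the scavenger receptor for haemoglobin, rose by 1.34, Fcgr1, a high-affinity receptor for IgG, by 0.73, C1qa, a chain of complement C1q, by 0.73 and Adgre1, the antigen F4/80, by 0.38. Siglec1 and Fcgr1 are also induced by interferon. Apoe (−0.16), Spp1 (−0.17) and Trem2 (−0.11), genes of lipid-associated macrophages, fell, and Cd68 (0.02) and Gpnmb (0.01) did not pass. Of 16 complement and Fc receptor genes, 13 rose and 0 fell, with complement factor B (Cfb) at 0.98 and the lectin Clec4e at 0.60.

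Monocyte genes were divided between 8 rises and 5 falls of 17. Ccr2, the receptor that brings monocytes from the blood, rose by 0.41 and Ly6c2, the antigen of inflammatory monocytes, by 0.22. The falls included Cd177 (−1.40), which is also a neutrophil antigen and stands on that list too, Plac8 (−1.08), Chil3 (−0.68) and F13a1 (−0.42). Of 16 dendritic cell genes, 6 rose and 1 fell, a fall whose call was lost without WT replicate 1, cKO replicate 2 or cKO replicate 3.

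Antigen presentation genes were higher by small amounts. Of 11 genes of MHC class II, 8 rose and 0 fell (median 0.22). Ciita, the master regulator of the class, was at 72.2, 74.2 and 68.7 CPM in WT and at 87.6, 89.5 and 88.7 CPM in the libraries labelled cKO (log2 0.31), and its target H2-Ab1 rose by 0.29. Of 17 genes of MHC class I, 12 rose and 0 fell (median 0.12), among them Nlrc5, the corresponding regulator (0.40), and the peptide transporter Tap1 (0.31).

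Inflammatory cytokines rose in 9 of 16 tested cases, and 0 fell (median 0.46). Il1b was at 139, 133 and 145 CPM in WT and at 233, 235 and 228 CPM in the libraries labelled cKO (log2 0.74, SE 0.027, adjusted p = 1.4e-18, edgeR), and Il6 rose by 0.74, Il1a by 0.58 and Tnf by 0.15. Chemokine ligands gave 11 rises and 2 falls of 20. Ccl2, the ligand of CCR2, was at 4.33, 4.52 and 3.85 CPM in WT and at 8.76, 9.27 and 9.10 CPM in the libraries labelled cKO (log2 1.09). Ccl7, another ligand of CCR2, rose by 1.22 from under 1 CPM (a call lost without WT replicate 3 or cKO replicate 1), Ccl4 by 0.92 and Cxcl10, the interferon-induced ligand of CXCR3, by 0.82. Cxcl16 rose by 0.13. Ccl5 fell by 0.18 and Cxcl14 by 0.73. Chemokine receptors gave 9 rises and 2 falls of 14, with Fpr1, a receptor for bacterial formyl peptides, at 0.54 and Ccr7, which directs cells to lymph nodes, at 0.19. Without WT replicate 3, cKO replicate 1 or cKO replicate 2 there was 1 fall.

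Effectors of immunosuppression moved in both directions, 9 higher and 3 lower of 18. Il10 was at 0.404, 0.315 and 0.403 CPM in WT and at 0.783, 0.666 and 0.978 CPM in the libraries labelled cKO (log2 1.11, SE 0.34, adjusted p = 0.014, edgeR), a low level at which the groups did not overlap. Its call was lost without WT replicate 2 or without cKO replicate 3. Arg1, arginase 1, was at 1.78, 1.80 and 2.32 CPM in WT and at 2.04, 1.97 and 2.30 CPM in the libraries labelled cKO and did not pass (log2 0.10, adjusted p = 0.74, edgeR). Nt5e, the ectoenzyme CD73 that forms adenosine, fell by 1.83 and Havcr2, the receptor TIM-3, by 0.94.

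Metrnl, Smpdl3b, Tnfaip8l2 and Socs3 are among 5 genes that the study names as YTHDF2 targets. It chose this list with data of these samples, so the list is not independent evidence of a direction. Of the 5, 4 rose and 1 did not pass the test. Smpdl3b, a lipid-modifying phosphodiesterase that restrains Toll-like receptor signalling, was at 26.4, 24.1 and 22.8 CPM in WT and at 40.9, 44.6 and 41.2 CPM in the libraries labelled cKO (log2 0.79, SE 0.051, adjusted p = 6.1e-13, edgeR). Socs3, the feedback inhibitor of cytokine signalling, was at 76.7, 77.5 and 74.3 CPM in WT and at 100.1, 97.7 and 98.5 CPM in the libraries labelled cKO, and Metrnl and Tnfaip8l2 rose by 0.34 and 0.41. The groups were separate in these 4 genes. In the SOCS family 2 of 8 genes rose, Socs3 and Socs2 (0.16), and 0 fell, a count near the 25.4% called over all genes.

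Inhibitors of NF-kB gave 13 rises and 1 fall of 20 (median 0.15). The largest were Trim30a (0.59), which is also on the interferon-stimulated list, Nfkbiz (0.52), an atypical inhibitor that can also coactivate, and Irak3 (0.46), a brake on Toll-like receptor signalling. Nfkbia, the classical inhibitor, rose by 0.08 and Tnfaip3, the deubiquitinase A20, by 0.09, and Tax1bp1 fell (−0.12). Among the NF-kB subunits and kinases 3 of 12 rose (Nfkb1 0.20, Tab2 0.19, Rela 0.13) and Ikbkg, the scaffold of the kinase, fell (−0.26). Over all genes 25.4% were called, and at 30 to 100 CPM 21.3% were higher and 14.2% lower. Of 23 genes of Toll-like receptor signalling, 12 rose, and Wdfy1, an adaptor described for TLR3, was the single fall (−2.20).

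The remaining m6A and decay genes were close to level. Of 9 m6A readers, 4 rose, Ythdf2 included, and 0 fell. The paralog Ythdf1 was at 54.6, 56.4 and 55.4 CPM in WT and at 66.3, 64.4 and 67.6 CPM in the libraries labelled cKO (log2 0.25), and Ythdf3 rose by 0.10. Without WT replicate 2, and in the fit of all 12 Inputs, 2 readers were called higher, with the calls of Ythdf3 and Igf2bp2 lost. Among 11 writers and erasers the writer subunit Wtap rose (0.19) and Zc3h13 fell (−0.13). In the decay machinery 2 of 28 genes rose and 3 fell, with Cnot1, the scaffold of CCR4-NOT, at −0.14 and the adaptor Rida, which links YTHDF2 to RNase cleavage, at −0.34. Without WT replicate 1, 2 writers and erasers were higher, and without WT replicate 1 or cKO replicate 1, 1 decay gene was. In the writers and erasers and in the decay machinery the called share was below the 25.4% over all genes.

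Cell cycle genes fell in 19 of 30 cases and rose in 0, with a median of −0.21. Cenpf, a kinetochore protein, was at 38.7, 43.00 and 42.4 CPM in WT and at 30.9, 27.3 and 28.6 CPM in the libraries labelled cKO (log2 −0.52). The falls included mitotic genes such as Ccna2 (−0.36), Aurka (−0.33) and Ccnb1 (−0.31), while the replication helicase genes Mcm2 to Mcm7 did not pass, with values of −0.07 to 0.04. In the fit of all 12 Inputs 12 of these genes were called lower.

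Over all genes 13% were called higher and 12.4% lower, and at 30 to 100 CPM 21.3% and 14.2%. Among the other lists, calls were 4 higher and 6 lower of 15 for haem and iron, with Lcn2, the siderophore-binding granule protein lipocalin 2, at −1.07 and the iron exporter Slc40a1 at −0.78. They were 9 and 0 of 24 for cholesterol metabolism, where the exporter Abca1 rose by 0.39. Hypoxia and glycolysis gave 12 and 3 of 27, with Pfkl at 0.31. Cathepsins and lysosome gave 7 and 5 of 20, with Ctsc, which activates granule proteases, at 0.41. Heat shock genes gave 4 and 0 of 12 (Hspa5, 0.28; 2 lower with upper-quartile scaling and 1 lower without WT replicate 2), and p53 targets 3 and 4 of 20. The p53 falls were 2 without WT replicate 1 or 2 or cKO replicate 2, and the rises 1 without WT replicate 1. Immediate early genes, which respond to handling of cells, gave 5 and 3 of 23, with Egr1 at 0.50, and there was 1 fall without cKO replicate 2. The sex-linked list gave 0 and 1 of 4 (Ddx3y, −0.17). Genes of the mitochondrial genome gave 7 and 1 of 13, in the direction of the mitochondrial share given above. In the irradiated Inputs the direction was the opposite, with 0 higher and 9 lower of 13 (median −0.86).

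Long noncoding RNAs included some of the more abundant falls. Malat1, a nuclear RNA of speckles, was at 1012, 1040.2 and 1031 CPM in WT and at 738, 743 and 737 CPM in the libraries labelled cKO (log2 −0.48, SE 0.018, adjusted p = 1.7e-18, edgeR). Lncpint fell by 1.67 and Kcnq1ot1, an imprinted antisense RNA, by 0.96, while Neat1, the scaffold of paraspeckles, rose by 0.26, and 10 of 13 listed RNAs were tested.

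Outside these lists most of the largest falls were of genes at low levels. Dnah8, a dynein of sperm tails, was at 2.27, 1.98 and 2.07 CPM in WT and at 0.615, 0.488 and 0.238 CPM in the libraries labelled cKO (log2 −2.23). Ncam1, a neural adhesion molecule, was at 3.75, 3.46 and 3.83 CPM in WT and at 0.685, 0.856 and 1.04 CPM in the libraries labelled cKO (log2 −2.09). Falls of like size were found for Cldn15 (−2.01), Myo18b (−1.86), Pgr (−1.85), Slco4c1 (−1.85), Zfp831 (−1.84), Lin28a (−1.83) and Tinagl1 (−1.78). Wdfy1 was more abundant, at 26.04, 27.5 and 24.9 CPM in WT and 4.98, 5.98 and 6.04 CPM in the libraries labelled cKO (log2 −2.20, SE 0.073, adjusted p = 1.2e-19, edgeR). Wdfy1 is also among the genes known to differ between C57BL/6 substrains. Of 6 tested genes of that kind 3 fell, the others being Nlrp12 (−1.48) and Cyfip2 (−0.42), and Nnt, the best known of them, was at 0.0975, 0.157 and 0.134 CPM in WT and 0.0839, 0.131 and 0.198 CPM in the libraries labelled cKO (log2 0.09, adjusted p = 0.94, edgeR).

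Both loci that were modified in the cKO line lie beside other genes. Within 5 Mb of Lyz2, 47 genes were tested, of which 14 were higher and 2 lower (34.0% called, against 25.4% over all genes). The nearest called genes were Lyz1, Yeats4 (0.25) and Cpsf6 (0.12). Within 5 Mb of Ythdf2, 151 genes were tested, of which 19 were higher and 26 lower (29.8%). The nearest called genes there were Oprd1 (−0.29), Trnau1ap (0.25) and Epb41 (−0.10). Of the other genes named above, Smpdl3b, Lin28a, Tinagl1 and C1qa lie within 5 Mb of Ythdf2 and Irak3 within 5 Mb of Lyz2. Both groups carried the floxed alleles of Ythdf2, whereas Cre at Lyz2 was carried by the cKO mice only. The part of linked variants in these differences was not tested.

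Level and gene structure differed between rises and falls. Among 3609 genes with a mean of up to 1 CPM, 49 were called higher and 221 lower, and among 1412 genes at 1 to 3 CPM the counts were 74 and 163. From 3 to 10 CPM upward the directions were nearer to balance, and at 30 to 100 CPM rises led, with 684 against 458 of 3217. Genes called higher had a median exonic length of 4086 bases and 50.3% GC, and genes called lower 5420 bases and 48.6% GC, against 3859 bases and 49.5% over all tested genes. The median span of the gene on the genome was 18684 bases for genes called higher and 34182 bases for genes called lower. Protein-coding genes made up 96.8% of the higher, 90.0% of the lower and 82.1% of the tested genes.

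Transcripts with m6A were then considered, because YTHDF2 acts on them. A gene was counted as marked when a peak present in all 3 unirradiated WT IP libraries overlapped its span, introns included, on its strand. Whether the WT Inputs served as control when these peaks were called is not stated in the sources used here. If they did, marking and fold change share libraries, and the part of this in the values below was not tested. Of 4748 marked genes 954 (20.1%) were higher and 480 (10.1%) lower, while of 10476 unmarked genes 1023 (9.77%) were higher and 1413 (13.5%) lower. Marked genes had a median log2 fold change of 0.03 and unmarked genes of −0.02, 0.05 apart. Marked genes were more abundant, with a median of 26.0 CPM against 5.80 CPM. Within each of 7 ranges of level the median of marked genes was above that of unmarked genes, by 0.01 to 0.05 from 1 CPM upward and by 0.16 in the 167 marked genes up to 1 CPM. The difference did not grow steadily with the number of peaks, with medians of 0.02, 0.04 and 0.02 for genes with 1 peak, with 2 to 3 and with over 3. Of the 15 named genes with the largest rise 2 were marked, and of the 15 with the largest fall 0 were.

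The same genotypes after irradiation gave a comparison with no shared library. The 6 irradiated Inputs (20 Gy, collected 3 days later) had 6829 of 15174 genes called (45.0%), 3504 higher (23.1%) and 3325 lower (21.9%). Of the 1973 genes that were higher in unirradiated tumours and tested there, 1050 (53.2%) were higher and 197 (9.98%) lower. Of 1831 that were lower, 1072 (58.5%) were lower and 159 (8.68%) higher. These shared calls were 30% of all higher and 32.2% of all lower calls after irradiation. Across the 14763 genes tested in both, Pearson's r was 0.50 and Spearman's rho 0.38, given as a description, since genes are not independent replicates.

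**Figure D4:**
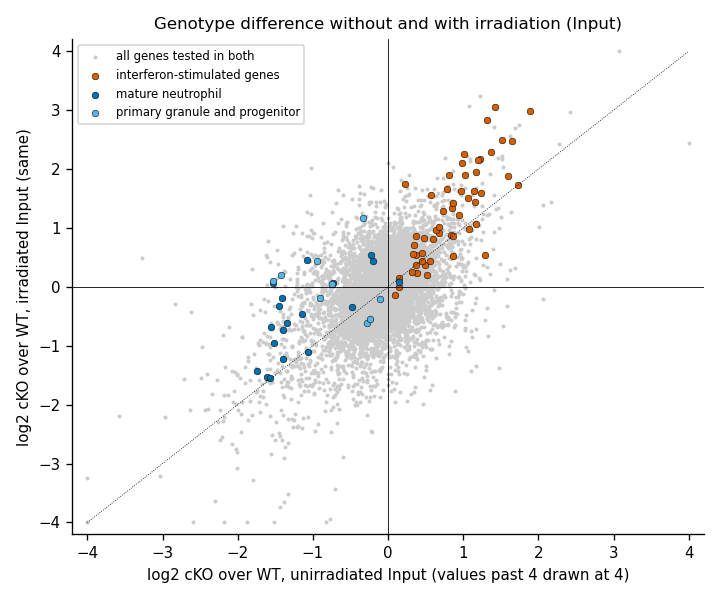
Log2 fold change (labelled cKO over WT) of each gene in irradiated Input against unirradiated Input, with the dotted line of equality. Interferon-stimulated genes (orange) lie mostly above the line in the upper right, and most neutrophil genes (dark blue) and primary granule genes (light blue) lie on the left, many near 0 after irradiation. Values past 4 in size are drawn at 4.

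The interferon-stimulated genes were higher after irradiation as well, 50 of 53, with a median of 1.21 against 0.85 without. All 15 named genes with the largest rise were higher again. Of the 15 with the largest fall, 9 were tested there and 7 were lower again. A test of the difference between the 2 conditions in the 12 Inputs was passed by 17 of the 43 named genes for which both values are given. The share over all genes is not given here, so this count does not set the named genes apart. In other lists 14 of 28 decay genes, 20 of 30 cell cycle genes and 0 of 7 T cell genes passed. Ifit1 was higher by 2.47 after irradiation and 1.65 without (adjusted p of the difference 8.6e-05, edgeR), Isg15 by 2.84 and 1.31 (5.4e-07), Rtp4 by 2.98 and 1.89 (6.9e-05), and Irf7 by 2.22 and 1.51 (2.7e-06). Oas2 was higher by 1.72 and 1.72, a difference that did not pass (adjusted p = 0.98, edgeR). For Ythdf2 the log2 fold change was 1.09 after irradiation and for Lyz2 −5.66. Whole-gene counts of Ythdf2 were thus higher under the cKO label in both conditions, and they do not show whether the floxed part was present.

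The granulocyte genes were less uniform after irradiation. Ngp (−1.54) and Ltf (−1.56) had values close to those without irradiation, and the test of the difference did not pass for either (edgeR adjusted p = 0.52 and 0.9). Lcn2 was 0.46 after irradiation against −1.07 without (adjusted p of the difference 5.1e-13). Of 19 neutrophil genes tested there 9 were lower and 3 higher (median −0.46). Elane, Mpo, Ctsg, Prtn3 and Ms4a3 had too few counts to be tested in the irradiated libraries. The cell cycle list had 15 higher and 3 lower genes after irradiation, against 0 and 19 without. Among the genes the study names, log2 fold changes after irradiation were 0.70 for Smpdl3b, 0.40 for Socs3, 0.40 for Metrnl and 0.70 for Tnfaip8l2, and they were 2.13 for Ccl2, 0.34 for Cxcl16, −0.16 for Ccl5, 0.18 for Ccr7, 1.57 for Il10 and 0.17 for Arg1.

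The unirradiated IP libraries gave a different picture of the same genotypes. In these libraries, made from RNA fragments bound by the m6A antibody, 5202 of 15139 genes were called (34.4%), 2534 higher (16.7%) and 2668 lower (17.6%). Of 1959 genes that were higher in Input, 540 (27.6%) were higher and 532 (27.2%) lower in IP. Of 1764 that were lower in Input, 393 (22.3%) were lower and 454 (25.7%) higher. Across 14187 genes Pearson's r was 0.07 and Spearman's rho 0.04, as a description. IP levels depend both on RNA level and on the methylated share, and the sources used here do not state whether the paired Input and IP libraries shared an RNA sample. When the 12 unirradiated libraries were fitted together, the genotype difference differed between Input and IP for 4570 of 16388 genes (27.9%), a fit added after the data were seen.

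**Figure D5:**
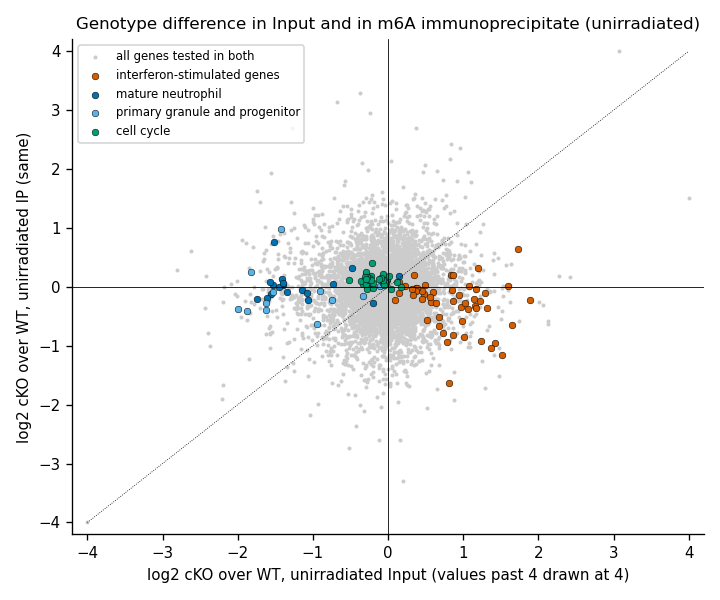
Log2 fold change (labelled cKO over WT) of each gene in unirradiated IP against unirradiated Input, with the dotted line of equality. Interferon-stimulated genes (orange) lie right of 0 in Input and mostly below 0 in IP. Values past 4 in size are drawn at 4. Most neutrophil (dark blue) and primary granule (light blue) genes lie left of 0 in Input and around 0 in IP, and cell cycle genes (green) lie near the origin, mostly above 0 in IP.

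Lyz2 was lower in IP too (log2 −7.51), whereas Ythdf2 was −0.18 in IP against 0.88 in Input. Of 53 interferon-stimulated genes 5 were higher and 24 lower in IP (median −0.21), and 48 passed the test of a higher value in Input than in IP. Ifit1 was −0.64, Ifit3 −1.16 and Oasl2 0.02 in IP. Of the 15 named genes with the largest rise, 3 were called higher and 4 lower in IP. Of the 13 tested there with the largest fall, 4 were called lower and 0 higher. Ngp was −0.19 and Ltf 0.08, and 17 of the 20 neutrophil genes passed the test of a lower value in Input. MHC class II had 9 lower genes of 11 in IP and cell cycle 19 higher of 30. Calls in IP were 0 higher and 8 lower of 14 for interferon-inducible GTPases and 1 and 15 of 17 for MHC class I. They were 3 and 11 of 19 for chemokine ligands and 3 and 11 of 20 for NF-kB inhibitors. The directions described above for these lists, for MHC class II and for interferon-stimulated, granulocyte and cell cycle genes therefore belong to the Input libraries. The direction of the cell cycle list was that of the unirradiated Inputs alone, with 15 higher and 3 lower of 30 after irradiation. Primary granule and progenitor genes had 1 higher and 3 lower of 9 there.

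A few genes had differences of at least 2-fold in the same direction in unirradiated Input, irradiated Input and unirradiated IP, and they were picked after their values were seen. Rab4a was higher by 3.07 in unirradiated and 4.56 in irradiated Input on the log2 scale, and in IP it was at 0, 0.0140 and 0 CPM in WT and at 1.10, 1.10 and 0.789 CPM in the libraries labelled cKO. In the 3 sets in that order Lyz2 was at log2 fold changes of −6.10, −5.66 and −7.51, and Wdfy1 at −2.20, −2.55 and −1.91. Adamts9, a metalloprotease of the extracellular matrix, was at −1.04 and −1.67 in Input and at −2.18 in IP, where it was under 1 CPM in every library, and Mtus2 at −1.07, −1.15 and −1.52. The transcript 3830403N18Rik had 0 counts in all 3 WT Inputs and 14, 18 and 29 counts in the unirradiated Inputs labelled cKO, so that no fold is given there, and it was higher by 2.44 in irradiated Input and 1.51 in IP.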

How the data were processed

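RNA of CD11b+ cells from MC38 tumours was sequenced as Input and m6A IP libraries, made with a stranded kit. Reads were trimmed by the authors (Trimmomatic 0.39) and mapped by HISAT to mm10 with GENCODE M19, and the authors deposited HTSeq counts per gene for each library, without normalisation. The authors called m6A peaks in each library with MACS2 and deposited them with a score, a fold enrichment (ratio) and −log10 p and q values. Peaks were intersected here to find those present in all 3 unirradiated WT IPs (overlap of at least 1 base). Differential expression was tested across all genes that reached 10 counts in 3 or more libraries, with the quasi-likelihood test of edgeR 4.0.16 (R 4.3.3), TMM factors and Benjamini-Hochberg adjustment over all genes tested, and the threshold was an adjusted p of 0.05. HTSeq summary lines, among them reads outside genes, were left out. The same fit was made for the irradiated Inputs and the unirradiated IPs, and interaction terms were tested in the 12 Inputs and in the 12 unirradiated libraries. The fit was tested on simulated data.

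Alternatives were RLE and upper-quartile scaling, DESeq2 1.42.0, no count filter, a minimum of 50 counts, all 12 Inputs in 1 fit, library sizes without mitochondrial genes, Lyz1 and Lyz2, the replicate number as a block, and each library left out. Named genes were the targeted loci, the 15 largest rises and the 15 largest falls among called genes whose groups did not overlap, with a mean of at least 100 counts in the higher group and a symbol that is not a clone name. Up to 4 called members of each list with the largest difference, the genes the study names and the neighbours of the targeted loci were added. Other list members in the text were picked after their values were seen. The members and lists were chosen with earlier results of these data known. Symbols and coordinates came from GENCODE M21 on GRCm38, which held 54409 of the 54446 identifiers. The labels give no batch or date. Of the listed symbols Ahsp and Norad were not matched, and Mnda and Mb21d1 were matched as Ifi211 and Cgas. The irradiated IP libraries were not used here. A few listed genes are counted in their lists but not reported here by name. With 71303126 to 83661576 counts per library, counting error was small for genes above a few CPM.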

Additional observations from a re-analysis of the deposited data

Results flagged for a closer look

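The genotype difference itself differed between irradiated and unirradiated Inputs for 17 of the 43 named genes with both values, by the interaction term of the 12 Inputs (edgeR, Benjamini-Hochberg adjusted over all genes). Such differences were common in other lists too, with 20 of 30 cell cycle genes and 14 of 28 decay genes, though 0 of 7 T cell genes. The share over all genes is not given here, so the count does not set the named genes apart. Values below are the log2 difference after irradiation minus that without it, each from 3 libraries a group. Among interferon-stimulated genes and their regulators the change was 1.5227 for Isg15, 1.2975 for Ifi208, 1.0819 for Rtp4, 0.9804 for Ifit3, 0.8127 for Ifit1, 0.7032 for Irf7 and 0.2764 for Oasl2. The chemokine genes Ccl2 and Cxcl16 gave 1.0329 and 0.2029. Rab4a gave 1.4835, Slc13a3 0.5535, Serpinb2 0.4972 and Tnfaip8l2 0.2799. At the targeted loci the change was 0.2063 for Ythdf2 and 0.438 for Lyz2. Wdfy1 changed by −0.3483. Lcn2 gave 1.5284, the largest change of these genes, with a lower level without irradiation and a higher level after it in the libraries labelled cKO. The absolute genotype difference was larger after irradiation for 15 of the 17 genes, the exceptions being Lyz2 and Lcn2. What accounts for these changes was not tested.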

How the results depend on the processing

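No call of the 181 named genes tested changed direction under any alternative. With all 12 Inputs in 1 fit, 2520 genes were called, 1295 higher and 1225 lower, against 3870 in the fit of the 6 libraries, and 12 named genes lost their call. The 2 fits differ in the spread they estimate, and the common coefficient of variation was 3.76% in the 6 unirradiated and 6.92% in the 6 irradiated Inputs. RLE scaling gave 3867 calls, upper-quartile scaling 3916, no count filter 3860, a minimum of 50 counts 3835, library sizes without mitochondrial genes, Lyz1 and Lyz2 3866, and DESeq2 3762. Leaving out each library gave 3140 to 3595 calls, 1608 to 1878 higher and 1529 to 1717 lower, and 6 to 10 named genes lost their call, mostly members with few counts such as Tubb1, Cdh1 and Ighm. Flt3, Ythdf3, Oprd1 and Cpsf6 were among them, each without any of 2 or 3 single libraries. For the irradiated Inputs this range was 5654 to 7362, and for the IPs 4401 to 4919. The m6A difference ranged from 0.0365 to 0.0481. Of 94 counts of list members, 13 moved by over 1.5 times with the 12 Inputs and 2 to 7 under the other alternatives that moved any.

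Groups share replicate numbers in the labels, but same-numbered libraries did not deviate together (correlations of 0.0142, −0.0479 and −0.0509), so the numbers were not taken as pairs. With the replicate block 3362 genes were called, 1725 higher and 1637 lower, and Ighm, Cdh1 and Tubb1 lost their call. Low counts limit the tests of other cell types' markers.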
